A study of Mus musculus with 9 samples.

Results

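The collagen genes of the stomach were followed in newborn mice with and without C/EBPβ, a transcription factor of the bZIP family. Members were taken by name: every non-control probe of the array whose gene name had the form Col, a number, a and a number, with 1 probe per gene, the one with the highest mean. This gave 43 genes, read by 68 probes, of 35079 genes named on the array. Of these, 11 encode chains of fibrillar collagens, 8 chains of basement membrane collagens and 24 other collagens. Enough signal for a test was found for 35 of the 43, among 21722 genes tested in all.

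The arrays measured whole-stomach RNA of 5 mice with a C/EBPβ knockout (KO 1 to KO 5) and 4 wild-type mice (WT 1 to WT 4), with 1 array per mouse. The mice were killed at birth, although 1 label calls them old. The labels give neither the strain nor the part of the gene that was removed, and say nothing of a treatment. From each stomach, 0.3 µg of RNA was copied with oligo dT primers and labelled with the dye Cy3. In bulk samples of this kind, fewer cells of a type and less RNA per cell cannot be told apart.

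Collagens are proteins of 3 chains wound into a triple helix, and each chain repeats a glycine followed by a pair of other residues. Fibrillar collagens, secreted mainly by fibroblasts and smooth muscle, assemble into the cables that give a wall its tensile strength, whereas type IV collagen forms the sheet-like network of basement membranes under epithelia and around muscle and vessels. The other collagens decorate fibrils, form beaded filaments, anchor epithelia to the tissue below or span the cell membrane. In the stomach they lie in the mucosa's connective tissue, the submucosa, the muscle layers and every basement membrane.

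The repeat could be read in the array's own probes. Of the 68 probes, 3 had at least 5 glycine codons in a row with 2 codons between each, and a pair of these is printed because their values are used further on. Capitals mark the glycine codons of the repeat, and positions follow the array design, on mouse build mm9. The first is the probe that reads Col15a1 (chr4:47283786-47283845, plus strand), and the second is 1 of the 4 probes of Col16a1 (chr4:129756457-129756516, plus strand).
Col15a1: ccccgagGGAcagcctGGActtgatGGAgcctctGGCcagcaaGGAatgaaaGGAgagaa
Col16a1: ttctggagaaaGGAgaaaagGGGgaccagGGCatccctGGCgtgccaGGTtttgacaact

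Levels below are log2 of the background-corrected spot signal minus log2 of the same array's 75th percentile, so that 0 is the brightness of the probe at that percentile. A difference is the KO mean minus the WT mean on this scale. Levels of different genes come from different probes and were not compared. Cebpb itself lay between -2.65 and -1.37 on the KO arrays and between 3.19 and 3.94 on the WT arrays, which matched the labels (-5.47 ± 0.30, SE; limma adjusted p = 0.000131). The 75th percentile of signal was lowest on WT 4 (195) and highest on KO 3 (408), between 50.9% and 57.2% of spots were well above background on each array, and 0 were saturated. Y-linked genes were without signal on KO 2, KO 4 and KO 5 and had signal on the other 6 arrays, so the 2 groups differ in their mix of sexes. Slide 1 carried KO 4, KO 5, WT 3 and WT 4, slide 4 carried KO 2, WT 1 and WT 2, and KO 3 and KO 1 were on slides of their own. On slides 1 and 4, therefore, every KO array lacked Y-linked signal and every WT array had it. Differences within a slide, and a fit with the slide as a block, cannot tell genotype from sex.

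One array stood apart in the collagens before any comparison of the groups. WT 4 had the lowest level of all 9 arrays in 24 of the 35 collagen genes tested (68.6%), against 24.0% of all genes. Among the 4 WT arrays it was the lowest in 29 of 35 (82.9%), against 36.9% of all genes. The median collagen level relative to the WT mean was -0.66 on WT 4, against 0.31 on WT 1, 0.04 on WT 2 and 0.31 on WT 3, and between 0.06 and 0.53 on the KO arrays. The median over all genes on WT 4 was 0.03 by the same measure. WT 4 also had the lowest median correlation with the other arrays over all genes, 0.954 against 0.970 to 0.978. Results are therefore given with and without it. In the sample titles WT 4 carries a letter before its number, whereas the other arrays carry a number alone. The labels do not explain this.

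**Figure D1:**
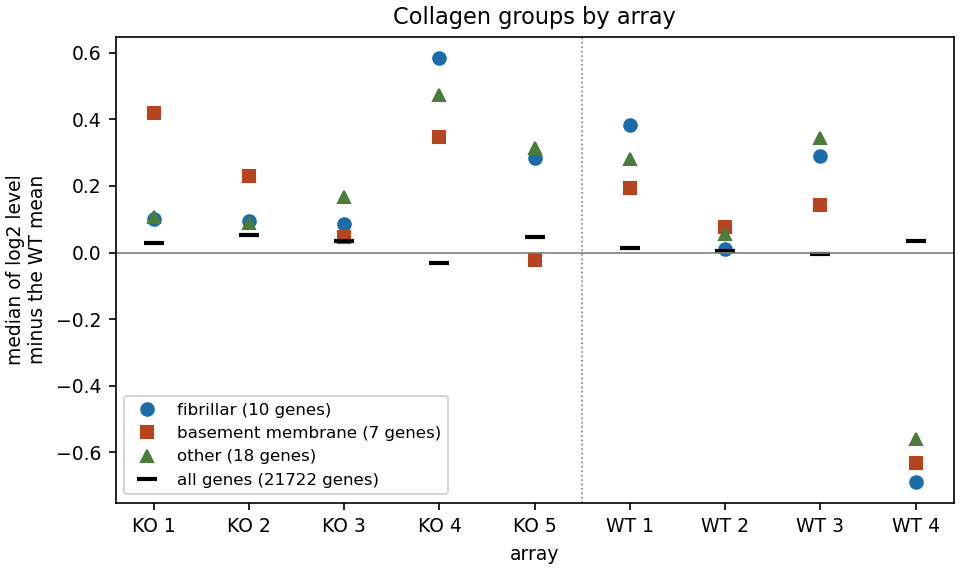
Median over the fibrillar (10 genes), basement membrane (7 genes) and other (18 genes) collagens, and over all 21722 genes, of the log2 level minus the WT mean, for each of the 9 arrays. The 3 collagen groups lie between -0.69 and -0.56 on WT 4 and at or above -0.02 on the other 8 arrays, while the black bars of all genes stay near 0.

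Did collagen transcripts differ between newborn KO and WT stomachs? No collagen passed the test: 0 of 35 were called by limma at an adjusted p under 0.05, against 0.207% of all 21722 genes (45 genes). By direction, 0.129% of all genes rose and 0.0783% fell. At an unadjusted limma p under 0.05 there were 4 of 35 collagens, all higher in the KO, where 8.84% of all genes passed in either direction, 5.39% as higher and 3.45% as lower in the KO. These 4 were Col4a5 and Col4a6, a pair of neighbouring type IV chains, Col23a1, a transmembrane collagen, and Col9a2, a chain of a fibril-associated collagen. In Col4a6 and Col23a1 the 5 KO arrays all lay above the 4 WT arrays, which held for 2.42% of all genes. Groups that did not overlap in either direction were found for 3.39% of all genes, and 0 collagens were among the 0.971% with all KO arrays below all WT arrays. The major fibrillar chains and the major type IV chains Col4a1 and Col4a2 had differences within the spread of the arrays.

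Over the 35 genes, 25 had a higher and 10 a lower mean in the KO, against 53% higher among all genes, and the median difference was 0.20, against 0.02 for all genes. With normexp background correction the collagen median was 0.10, and with a Y-linked covariate 0.04, close to the all-gene median of that fit (0.04). Without WT 4, 16 of the 35 had a higher mean, against 55% of all genes, and the median was -0.03. In that fit 0 collagens were called, against 149 of all genes (0.686%). Without KO 4 the median was 0.11. The median standard error of a collagen's difference was 0.26, and its 95% interval reached 0.58 to either side in the median gene. The spread over mice was larger in the WT group for 26 of the 35 genes, with a median SD of 0.51 in WT and 0.34 in KO. On slide 1, which held WT 4, 28 of 35 collagens were higher in the KO with a median difference of 0.65. On slide 4, with 1 KO and 2 WT arrays, 18 of 35 were higher and the median was 0.04. On both slides the KO arrays lacked Y-linked signal and the WT arrays had it.

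Of the basement membrane collagens, 7 of 8 were tested, 4 higher and 3 lower, with a median difference of 0.16, though Col4a2 and Col4a4 changed sign with normexp background correction and Col4a1 and Col4a2 with array median scaling. Without WT 4, 3 were higher and 4 lower, and the median turned to -0.05. Without KO 4 it was 0.08. Type IV collagen is built from 6 chains whose genes lie in head-to-head pairs on 3 chromosomes, and these pairs gave different pictures. Col4a5 and Col4a6 are X-linked chains found in basement membranes of smooth muscle and of epithelia such as skin and oesophagus.

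Col4a6 (probe at chrX:137599990-137600049, mm9, minus strand) had levels of 2.71, 2.98, 2.94, 2.73 and 3.16 in KO mice 1 to 5 and of 2.43, 2.09, 2.02 and 1.76 in WT mice 1 to 4. Every KO array was above every WT array, with WT 4 the lowest. The KO mean of 2.91 ± 0.19 (SD, n = 5) lay 0.83 ± 0.17 (SE) above the WT mean of 2.08 ± 0.28 (SD, n = 4), or 1.78-fold. The exact permutation p over the 126 ways to split the arrays was 0.00794, two-sided, the smallest this design can give. It largely restates that the groups did not overlap, and it was not adjusted over genes. The limma adjusted p over all genes was 0.151, so the difference was not called. Over 21 other ways of processing the data the difference stayed between 0.51 and 0.95 and the lowest adjusted p was 0.0762. A second Col4a6 probe, dimmer but above background on all 9 arrays, gave a difference of 0.19.

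Col4a5 (chrX:138123547-138123606, mm9, plus strand), mutated in X-linked Alport syndrome, had levels of 2.45, 2.64, 3.07, 2.71 and 3.14 in KO mice 1 to 5 and of 2.51, 2.13, 2.13 and 1.36 in WT mice 1 to 4. WT 1 lay above KO 1, so the groups overlapped, and WT 4 was again the lowest array. The difference was 0.77 ± 0.25 (SE), or 1.71-fold, with an exact two-sided permutation p of 0.0238 and a limma adjusted p of 0.399. Without WT 4 the differences were 0.55 for Col4a5 and 0.73 for Col4a6, with limma adjusted p-values of 0.230 and 0.0911. Within slide 1 they were 1.18 and 1.06, and within slide 4 they were 0.32 and 0.72. On both slides the groups also differed in Y-linked signal, so these values cannot tell genotype from sex. Both genes are X-linked, and once the level of Y-linked genes was a covariate the differences were 0.68 and 0.74. Neither was called there.

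Col4a1 and Col4a2, the chains of the type IV collagen present in nearly every basement membrane, had differences near 0 with overlapping groups. Col4a1 had levels of 4.58, 4.70, 4.92, 5.01 and 4.83 in KO mice 1 to 5 and of 4.89, 5.25, 5.16 and 4.12 in WT mice 1 to 4. Col4a2 had 4.01, 4.11, 4.18, 4.58 and 4.21 on the KO arrays and 4.43, 4.77, 4.63 and 3.11 on the WT arrays. In both genes WT 4 was the lowest array, while WT 2 and WT 3 lay above all KO arrays. The differences were -0.05 (95% interval -0.57 to 0.47; limma adjusted p = 0.982) and -0.02 (-0.72 to 0.69; adjusted p = 0.995). Without WT 4 they became -0.30 and -0.39, with adjusted p-values of 0.382 and 0.293, so their size depends on that array, and with each array scaled to its median both turned positive (0.0055 and 0.040).

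**Figure D2:**
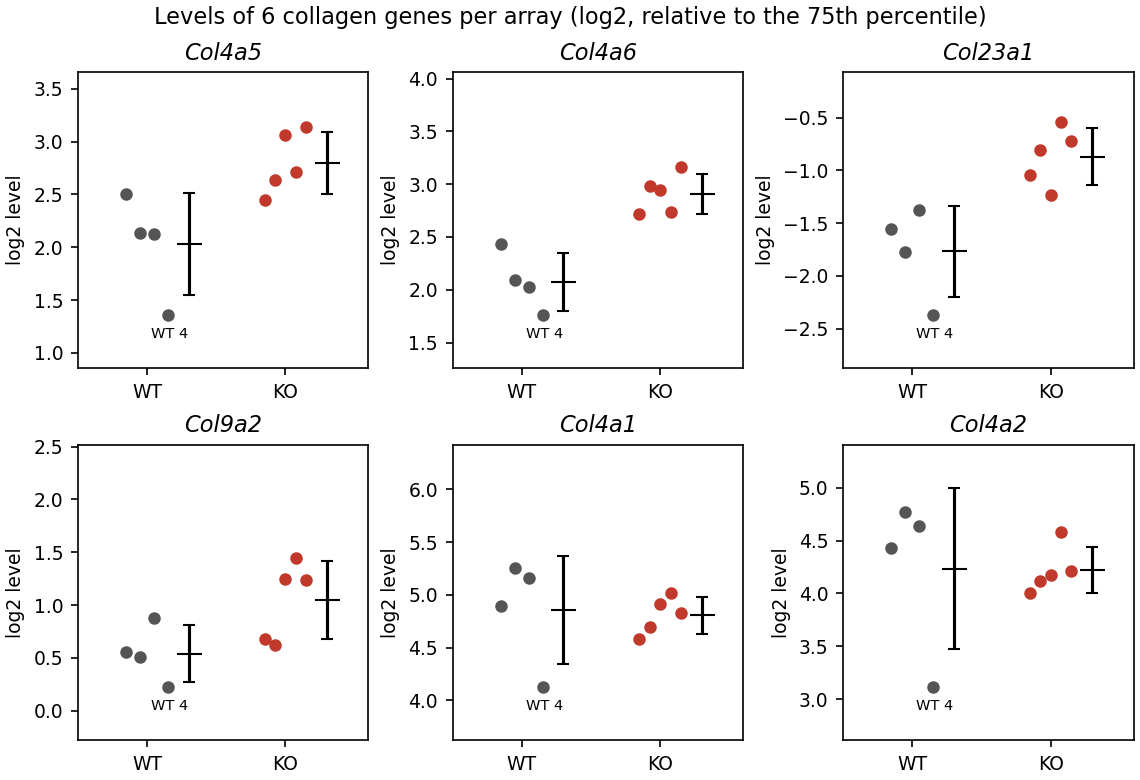
Log2 level relative to the array's 75th percentile of Col4a5, Col4a6, Col23a1, Col9a2, Col4a1 and Col4a2 on each of the 4 WT (grey) and 5 KO (red) arrays, with the group mean and SD as bars beside the points. In Col4a6 and Col23a1 the red points all lie above the grey ones, and in all 6 panels WT 4 is the lowest WT array.

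The third pair, Col4a3 and Col4a4, known from kidney glomeruli, gave little signal. Col4a3 was above background on 1 of 9 arrays and was not tested, and Col4a4 had a difference of 0.28 with overlapping groups. The multiplexin collagens Col15a1 and Col18a1, which link basement membranes to the tissue below and carry the endostatin domain, had differences of -0.42 and 0.16. The 3 probes of Col15a1 all gave lower KO means, by -0.42 for the probe printed above and by -0.95 and -0.92 for the others. Those others overlap each other on the genome, so they are not separate readings. Both were dimmer than the printed probe and above background on 7 of 9 arrays. On the printed probe KO 3, KO 4 and KO 5 lay at or below -1.34. The other 6 arrays lay between -0.79 and -0.07, and KO 1 was the highest of all.

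The start regions of the genes with p under 0.05 were read from RefSeq on build GRCm38.p6, which held a window for 35 of the 43 collagens. These are not the same 35 genes as those tested, and some have more than 1 window. The start sites of Col4a5 and Col4a6 lie 1343 bases apart on the X chromosome and point away from each other. Those of Col4a1 (minus strand, 11312826) and Col4a2 (plus strand, 11312805) on chromosome 8 lie 21 bases apart. At these positions the starts of the Col4a1 and Col4a2 transcripts overlap, with no gap between them. Because Col4a5 and Col4a6 both had higher KO means, the 250 bases before each start site are shown 5′ to 3′ on the gene's own strand, Col4a5 at chrX:141475169-141475418 (plus strand) and Col4a6 at chrX:141474077-141474326 (minus strand). Capitals mark a match to the C/EBP site TTGCNNAA, searched on both strands.
Col4a5: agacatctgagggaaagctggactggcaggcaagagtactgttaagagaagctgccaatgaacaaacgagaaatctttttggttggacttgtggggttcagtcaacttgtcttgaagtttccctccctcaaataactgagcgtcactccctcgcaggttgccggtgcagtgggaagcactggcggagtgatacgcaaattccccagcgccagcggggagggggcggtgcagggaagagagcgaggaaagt
Col4a6: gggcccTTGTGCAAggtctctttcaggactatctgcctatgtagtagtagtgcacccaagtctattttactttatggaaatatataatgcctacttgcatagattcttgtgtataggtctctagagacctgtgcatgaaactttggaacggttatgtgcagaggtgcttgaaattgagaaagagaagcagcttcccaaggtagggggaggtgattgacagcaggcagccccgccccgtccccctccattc

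The Col4a6 window held 1 match, on the strand opposite to the gene and starting 244 bases before the start site, and the Col4a5 window held none. Windows of 3 of the 35 collagens held the C/EBP letters, those of Col4a6, Col13a1 and Col6a2, against 9.56% of 32851 windows of the same length. The differences of Col13a1 and Col6a2 were 0.06 and 0.20. The letters CCAAT were in the windows of 13 of 35 collagens, against 33.8% of all windows, and the GC box GGGCGG in 21 of 35, against 32.7%. Collagens were counted per gene over 38 windows, whereas the shares of all windows are per window, so the units differ. Such matches describe letters only.

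Of the 24 collagens outside the fibrillar and basement membrane groups, 18 were tested, 12 higher and 6 lower, with a median difference of 0.20, and without WT 4, 9 were higher and 9 lower with a median of 0.01. Without WT 2 the median was 0.31. The 4 transmembrane collagens, whose chains cross the cell membrane and can be shed from it, all had higher KO means, by 0.06 to 0.90. The differences of Col13a1 and Col25a1 turned negative with normexp background correction, and that of Col13a1 also without WT 4. Col13a1 was above background on 4 of 9 arrays, the fewest that allowed a test. Col23a1 (chr11:51394105-51394164, mm9, plus strand) had levels of -1.04, -0.81, -1.23, -0.55 and -0.72 in KO mice 1 to 5 and of -1.55, -1.77, -1.38 and -2.37 in WT mice 1 to 4. All KO arrays were above all WT arrays, with WT 4 the lowest. The difference was 0.90 ± 0.23 (SE), or 1.86-fold, with an exact two-sided permutation p of 0.00794 and a limma adjusted p of 0.266. Its 3 probes gave differences of 0.90, 0.98 and 1.16. Without WT 4 the difference was 0.70 (adjusted p = 0.133), within slides 1 and 4 it was 1.24 and 0.85, and once the level of Y-linked genes was a covariate it was 0.61. Over the 21 other ways of processing it stayed between 0.47, with normexp background correction, and 1.08, with a lowest adjusted p of 0.0937.

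Col17a1, the hemidesmosome collagen that ties basal cells of stratified epithelium to the basement membrane, had levels of 1.52, 1.40, 1.81, 1.47 and 1.35 in KO mice 1 to 5 and of 1.71, 1.00, 1.24 and 0.78 in WT mice 1 to 4. The groups overlapped through WT 1, and the difference was 0.33 ± 0.20 (SE; limma adjusted p = 0.727). It was 0.19 without WT 4 and 0.50 without WT 1. Col7a1, which forms the anchoring fibrils below such epithelium, had levels of 3.34, 3.13, 3.43, 3.10 and 2.98 on the KO arrays and of 3.50, 3.14, 3.61 and 2.73 on the WT arrays. Its groups overlapped, with a difference of -0.05 (95% interval -0.50 to 0.40; limma adjusted p = 0.981) that was 0.0088 with array median scaling. Markers of squamous basal cells, measured beside them, were higher in 4 and lower in 6 of 10, with 0 called. Without WT 4, 5 were higher and 5 lower. Markers of squamous differentiation were higher in 4 and lower in 8 of 12, with a median of -0.44 and 0 called. Without WT 4 all 12 were lower, with a median of -0.85 and 0 called. The part of these cells in the Col17a1 and Col7a1 values was not tested.

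The fibril-associated collagens, which sit on the surface of fibrils, had 6 of 9 members tested, 4 higher and 2 lower, with a median difference of 0.32 that was 0.08 without WT 4. Col9a2, a chain of type IX collagen best known from cartilage, had levels of 0.68, 0.63, 1.24, 1.45 and 1.24 in KO mice 1 to 5 and of 0.56, 0.50, 0.88 and 0.22 in WT mice 1 to 4. KO 3, KO 4 and KO 5 lay above all WT arrays, while KO 1 and KO 2 lay below WT 3. The difference was 0.51 ± 0.22 (SE), or 1.42-fold, with an exact two-sided permutation p of 0.0794 and a limma adjusted p of 0.549. Within slide 4 it was 0.09, and without WT 4 it was 0.40. The other chains of type IX collagen, Col9a1 and Col9a3, were above background on 0 and 1 arrays on the probes used. Of the cartilage and bone markers, 5 were tested, 3 higher and 2 lower, and Acan, Matn1, Matn3, Cnmd, Ibsp and Sp7 were above background on 3 arrays at most. Hapln1, a cartilage link protein, was the lone member of that list whose groups did not overlap, with a difference of 1.01 (limma adjusted p = 0.207). Groups did not overlap in 3.39% of all genes. Hapln1 was dim, at -4.33 on WT 3 and -3.96 on WT 4, below any spot called well above background on those arrays. The part of cartilage or bone cells in the Col9a2 value was not tested.

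For Col16a1 the probes of the gene differed. The probe used gave a difference of 0.44 and another bright probe 0.46, whereas the repeat probe printed above gave -0.07. The repeat probe was much dimmer, with a WT mean of -2.08, against 4.95 on the probe used and 2.27 on the other bright probe. Without WT 4 the difference on the probe used was 0.12. All 3 were above background on 9 arrays, and the one remaining was above background on none. Over the collagens with 2 or more probes above background on at least 4 arrays, 11 of 12 had the same sign on all such probes, and Col16a1 was the exception.

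Type VI collagen, which forms beaded filaments around cells, had 5 of 6 genes tested, 4 higher and 1 lower, with a median difference of 0.35, and the lower one, Col6a3, turned positive with array median scaling. Without WT 4, 2 were higher and 3 lower, with a median of -0.03, and without KO 5 the median was 0.19. Col6a1 had levels of 5.91, 6.14, 6.14, 6.41 and 6.13 in KO mice 1 to 5 and of 6.07, 6.20, 6.24 and 4.67 in WT mice 1 to 4. The 8 arrays other than WT 4 lay between 5.91 and 6.41, and WT 4 lay far below them. The difference of 0.35 ± 0.31 (SE; limma adjusted p = 0.826) became -0.03 without WT 4 (adjusted p = 0.958). The differences of Col6a2 and Col6a3 moved in the same way, from 0.20 to -0.41 and from -0.05 to -0.48. Among the type VI genes, Col6a4 did not follow, with 0.47 on all arrays and 0.55 without WT 4.

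The short-chain collagens of type VIII, found around vessels and smooth muscle, had lower KO means. Col8a1, named here after its values were seen, had levels of -0.84, -1.38, -0.36, 0.35 and -1.31 in KO mice 1 to 5 and of 0.67, 0.55, 0.85 and -1.17 in WT mice 1 to 4. WT 1, WT 2 and WT 3 lay above all KO arrays, whereas WT 4 lay among them. The difference was -0.93 ± 0.47 (SE; limma adjusted p = 0.633; exact two-sided permutation p = 0.127), and without WT 4 it was -1.40 (adjusted p = 0.124). Without that array, 5 of 35 collagens had an unadjusted limma p under 0.05, where 16.2% of all genes did, namely Col4a5, Col4a6 and Col23a1, higher in the KO, and Col8a1 and Col4a2, lower in the KO. Col8a2 had a difference of -0.19.

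**Figure D3:**
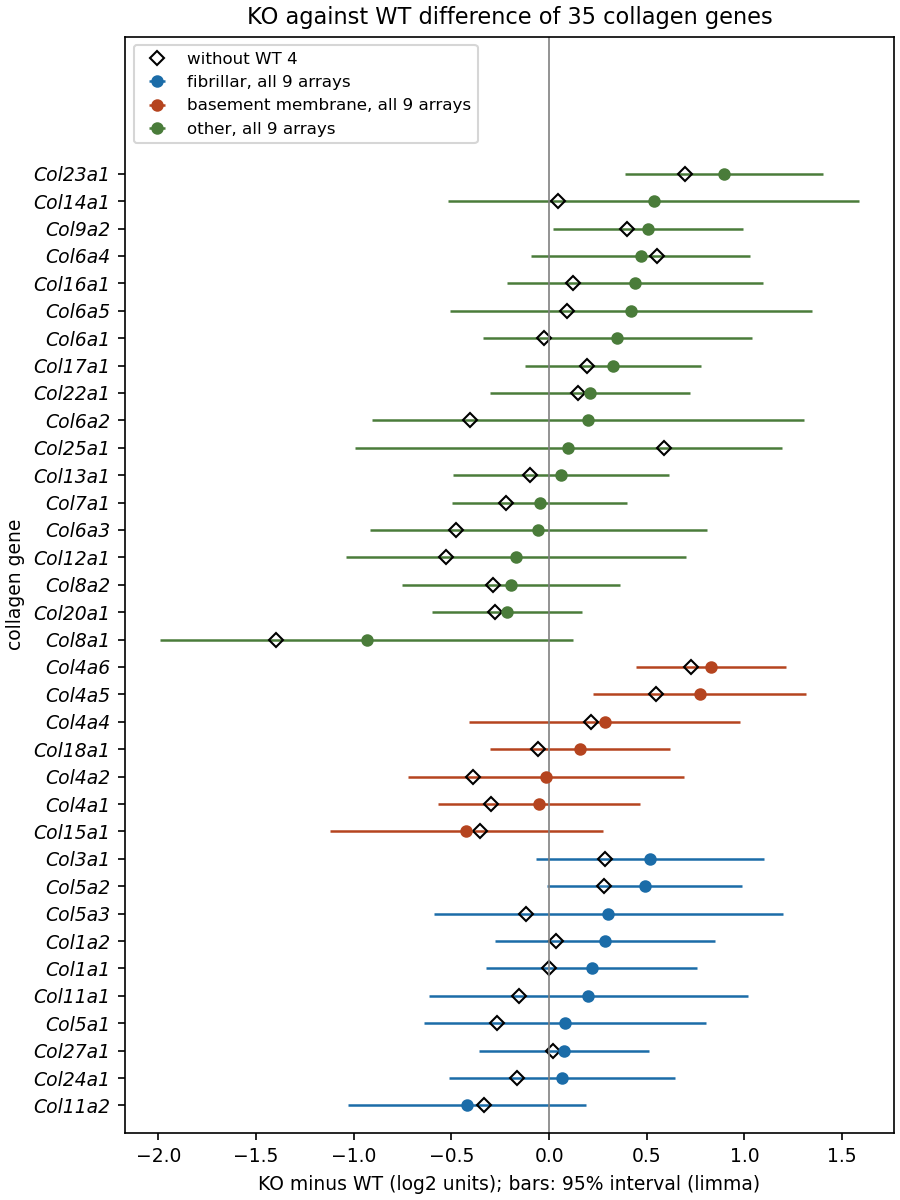
KO minus WT difference in log2 units of the 35 collagen genes tested, by group, with 95% intervals from limma over all 9 arrays (filled circles) and the same difference without WT 4 (open diamonds). The intervals of Col23a1, Col9a2, Col4a6 and Col4a5 lie above 0, and without WT 4 the values of 16 of the 35 genes lie above 0, against 25 with it.

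Of the fibrillar collagens, 10 of 11 were tested, 9 with a higher and 1 with a lower KO mean, the latter Col11a2. That gene was above background on 4 of 9 arrays, the fewest that allowed a test. Col24a1 turned negative with normexp background correction. Without WT 4, 4 were higher and 6 lower and the median turned from 0.21 to -0.06, as Col11a1, Col1a1, Col24a1, Col5a1 and Col5a3 changed sign. Without KO 4 the median was 0.11, and without WT 3 it was 0.43. On all 9 arrays the median difference was 0.21, the range -0.42 to 0.52, and 0 of 10 had an unadjusted limma p under 0.05. Col1a1 and Col1a2, the chains of type I collagen, had levels that overlapped. Col1a1 had 7.40, 7.29, 7.30, 7.58 and 7.38 in KO mice 1 to 5 and 7.48, 6.91, 7.77 and 6.52 in WT mice 1 to 4. Col1a2 had 8.34, 8.41, 8.11, 8.47 and 7.82 on the KO arrays and 8.18, 7.98, 8.43 and 7.20 on the WT arrays. In both genes WT 3 was near the top of the 9 arrays and WT 4 at the bottom. The differences were 0.22 ± 0.24 and 0.29 ± 0.25 (SE), with limma adjusted p-values of 0.877 and 0.826, and without WT 4 they were -0.0011 and 0.04.

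Col3a1, the fibrillar collagen of distensible tissue such as gut and vessel walls, had levels of 7.33, 7.42, 7.51, 8.09 and 7.41 in KO mice 1 to 5 and of 7.63, 7.03, 7.13 and 6.35 in WT mice 1 to 4. KO 4 was the highest array and WT 4 the lowest, and WT 1 lay among the KO arrays. The difference was 0.52 ± 0.26 (SE; limma adjusted p = 0.630; exact two-sided permutation p = 0.103), and without WT 4 it was 0.29 (adjusted p = 0.552). Within slide 1 it was 1.01 and within slide 4 it was 0.09. The type V and XI chains, which regulate the width of fibrils, ranged from -0.42 for Col11a2 to 0.49 for Col5a2 with overlapping groups. The Col11a2 value comes from a dim probe, above background on 4 of 9 arrays. Col2a1, the main cartilage collagen, was above background on 0 of 9 arrays.

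Fibroblast markers had mostly higher KO means with WT 4 included. Of 11 fibroblast markers 9 had higher and 2 lower KO means with 0 called, and their median difference was 0.38. Without WT 4, 5 were higher and 6 lower with a median of -0.03, and without KO 4 the median was 0.23. Their summed linear level, in multiples of the 75th percentile, ran from 63.6 to 121 on the KO arrays and from 32.1 to 91.9 on the WT arrays, with WT 4 the lowest and KO 4 the highest. The members with the smallest p were Fap (0.67), Pdgfrb (0.49) and Dpt (1.17), with limma adjusted p-values of 0.510, 0.535 and 0.545, and without WT 4 their differences were 0.40, 0.47 and 0.60. Smooth muscle markers had mostly lower KO means, with 1 of 10 higher, 9 lower and 0 called, a median of -0.43, and summed levels of 1104 to 1757 in KO and 1488 to 2387 in WT. Actg2, the enteric smooth muscle actin, had a difference of -0.92 with groups that did not overlap (adjusted p = 0.209), and fell by 1.11 without WT 4 (limma adjusted p = 0.0330). Gastric glandular markers were higher in 13 of 13, and Gkn2, a secreted protein of surface mucous cells, rose by 1.79 (adjusted p = 0.0252). The part of these shifts in the collagen values was not tested.

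**Figure D4:**
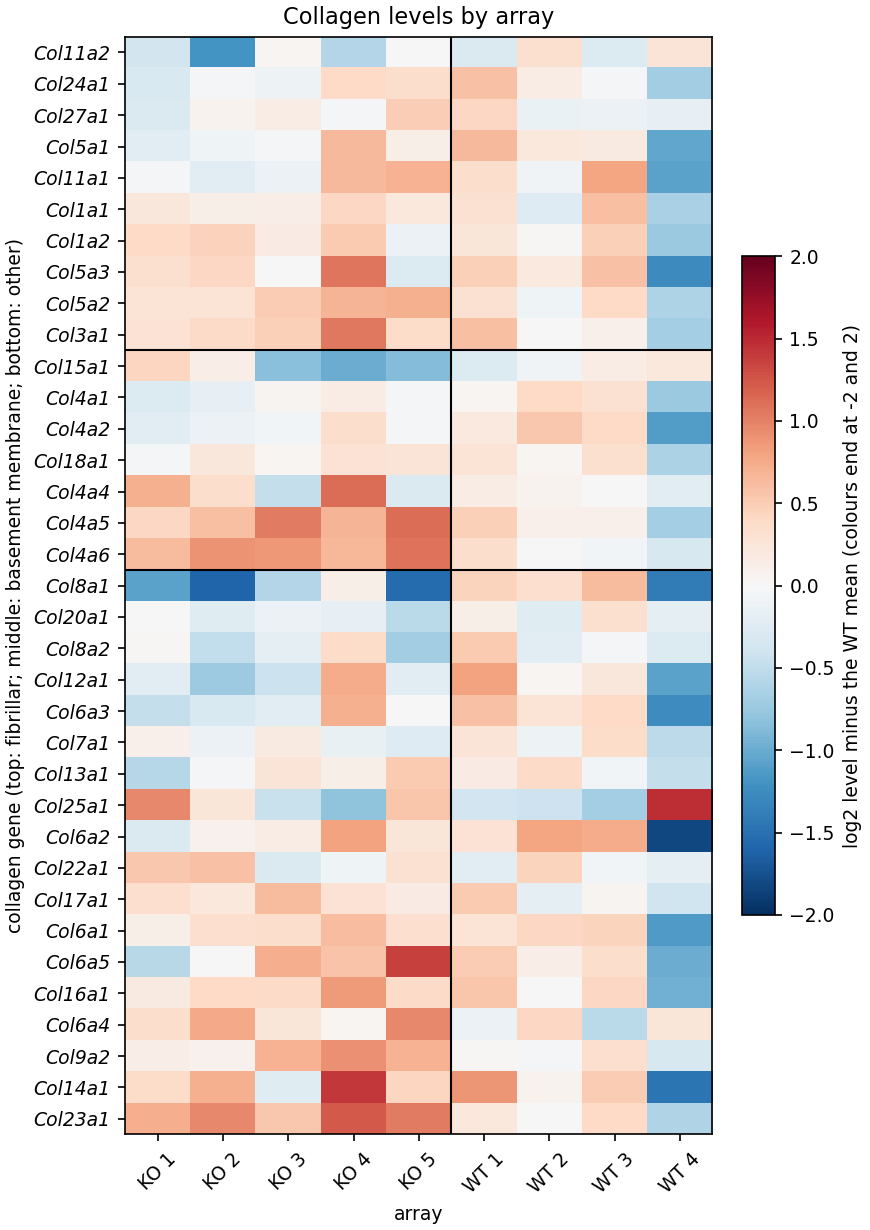
Log2 level minus the WT mean of the 35 collagen genes tested (rows, by group) on the 9 arrays (columns), with colours ending at -2 and 2. The WT 4 column is blue in most rows, and the rows of Col4a5, Col4a6 and Col23a1 are red on all 5 KO arrays. Other rows, among them Col3a1, Col5a2 and Col9a2, also lie above the WT mean on all 5 KO arrays. The WT mean includes WT 4.

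The remaining 8 collagens were above background on 3 arrays at most and were not tested: Col2a1, Col4a3, Col6a6, Col9a1, Col9a3, Col10a1, Col19a1 and Col28a1. Their differences carry little information, since the probes mostly gave background signal. Emid2, which RefSeq names Col26a1, fell outside the name rule. Its difference was 0.41 (limma adjusted p = 0.427), and its KO arrays all lay above its WT arrays.

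Collagen chains need enzymes and partners, and these were counted in the same fit. Of 20 genes for the modification and folding of collagen in the endoplasmic reticulum, 8 had higher and 12 lower KO means with 0 called, and the median was -0.09, or -0.29 without WT 4. P4ha3, a subunit of prolyl 4-hydroxylase, had a difference of -0.51 with groups that did not overlap (limma adjusted p = 0.370), and Plod2, a lysyl hydroxylase, one of -0.55 (adjusted p = 0.539). P3h2, a prolyl 3-hydroxylase, lay 0.32 higher with groups that did not overlap (adjusted p = 0.523). Of 13 genes for the removal of propeptides and for crosslinking, 10 were tested, 4 higher and 6 lower with 0 called, and without WT 4, 2 were higher and 8 lower. Loxl4, a lysyl oxidase, had -0.80 (adjusted p = 0.358).

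Of proteins that sit on fibrils or in basement membranes 0 were called, and their counts by direction depended on WT 4. Of 11 fibril-associated proteins tested, 8 were higher and 3 lower, with a median of 0.40 and summed levels of 676 to 947 in KO and 310.1 to 859 in WT, where WT 4 was the lowest. Without WT 4, 5 were higher and 6 lower, with a median of -0.02. Tnxb, a tenascin, had a difference of 0.90 (limma adjusted p = 0.397), and Postn, the matricellular protein periostin, one of 0.96 with groups that did not overlap (adjusted p = 0.429). Without WT 4 they were 0.69 and 0.66. Of 12 basement membrane partners, 10 were higher and 2 lower, with a median of 0.19, and without WT 4, 7 were higher and 5 lower with a median of 0.06. Without WT 1 and without WT 3 the medians were 0.35 and 0.32. The member with the smallest p was Smoc1, a calcium-binding basement membrane protein, at 1.53 ± 0.28 (SE) with groups that did not overlap (adjusted p = 0.0979).

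Collagen receptors and proteases showed no common direction. Of 9 receptors tested, 4 were higher and 5 lower with a median of -0.01. Without WT 4, 5 were higher and 4 lower with a median of 0.12. Itga11, the integrin chain for fibrillar collagen on fibroblasts, had the smallest p with a difference of 0.75 (limma adjusted p = 0.508). It was 0.45 without WT 4. Of 10 collagen-degrading proteases and their inhibitors tested, 5 were higher and 5 lower with a median of 0.07. Without WT 4, 6 were higher and 4 lower with a median of 0.04. Ctsk, the collagen-cleaving cathepsin K, had 0.68 and the membrane-bound protease Mmp15 had 0.40, with limma adjusted p-values of 0.531 and 0.557. Their differences without WT 4 were 0.39 and 0.47. Mmp1a, Mmp3, Mmp8, Mmp9, Mmp10, Mmp13 and Mmp16 were too close to background to be tested.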

How the data were processed

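Per the file headers, the authors' spot intensity values come from Agilent Feature Extraction, version 10.5.1.1 (protocol GE1_107_Sep09, 1 colour, design on build mm9), with background subtraction and spatial detrending. The submitters' processing notes name version 9.1. The deposited files also hold flags of other kinds per spot (well above background, saturated, outlier). The authors' series matrix holds log2 values, which had a slope of 1 and the same direction against log2 processed signals over 24594 probes. Its column medians ran from -0.28 to 0.38, and what its probes were centred on is unknown.

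Here, spots flagged as outliers were left out and spots of a probe averaged, which left 21 of 55681 probes without a value on some array and out of the fit. Each array's log2 processed signals were set relative to its own 75th percentile. Genes were read by the probe with the highest mean and tested where that probe was well above background on at least 4 of 9 arrays. The fit was limma 3.58.1 in R 4.3.3 (lmFit, eBayes, two-sided, Benjamini-Hochberg over all 21722 genes). It was also run on simulated data with independent noise for each gene. Those data held no array like WT 4 and no slide or sex differences, so they cannot show how the fit handles these. Exact permutation tests covered all splits of the arrays, and their p-values were not adjusted over genes. For groups that do not overlap, as in Col4a6 and Col23a1, they largely restate the separation. The number of arrays limits the precision. Accessions of 26762 probes matched RefSeq GRCm38.p6, and 2878 took another name there, while collagens kept the design's names. An mm9 annotation was not used here, so exons and UTRs of probes are not given.

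The members and gene lists were chosen with earlier results of these data known. Values per array are given for collagens with an unadjusted p under 0.05 or groups that do not overlap, and for Col1a1, Col1a2, Col3a1, Col4a1, Col4a2, Col6a1, Col7a1 and Col17a1. Of each other list, up to 3 tested members with the smallest p may be named. Other collagens are named for the ends of ranges or the sides of a count, after their values were seen. Replicate numbers were not used to pair the arrays in the main fit. Deviations of same-numbered KO and WT arrays correlated at -0.30, 0.12, 0.15 and -0.48, and those of other pairs at -0.21 to 0.38. So few correlations cannot decide whether the mice were paired. Alternatives covered background correction, scaling, the filter, the probe rule, slide, Y-linked level, a replicate block and leaving out each array.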

Additional observations from a re-analysis of the deposited data

Results flagged for a closer look

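Single arrays stood apart from the rest of their group in 7 of the 78 groups examined, the KO and the WT group of each of the 35 collagens and of the median of each collagen group, where chance marks about 1 group in 20. In 5 of the 7 the array was WT 4. It was the lowest of the WT arrays for Col6a1 (4.67, against 6.07 to 6.24 on the others), Col6a3 (3.70), Col8a1 (-1.17) and the median of the basement membrane collagens relative to the WT mean (-0.63), and the highest for Col25a1, a transmembrane collagen (-0.24). The differences without WT 4 were -0.03 for Col6a1, -0.48 for Col6a3, -1.40 for Col8a1 and 0.59 for Col25a1.

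In the other cases, WT 1 was the highest WT array for Col27a1, a fibrillar collagen (0.075, against -0.51 to -0.45 on the others), and KO 4 was the highest KO array for Col3a1 (8.09, against 7.33 to 7.51).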

How the results depend on the processing

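No collagen was called under any of the 21 alternatives, with a lowest limma adjusted p of 0.0762. The count over all genes moved from 45 to 25 without the filter on dim probes, to 5 with the slide as a block, to 5 with a Y-linked covariate, to 4 on the arrays with Y-linked signal alone (chosen after seeing the data) and to between 10 and 149 on leaving out 1 array. With the replicate number as a replicate block it was 4, and the collagen median was 0.18. The collagen median ran from -0.03 (without WT 4) to 0.30 and was 0.10 with normexp and 0.04 with the Y-linked covariate. Leaving out each array for the gene lists was added after seeing the data. The planned scan time block was not run, since scan time and slide were one and the same. Depth on arrays is limited by signal over background, which left 8 collagens untested. The cause of these shifts was not tested.

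Of the 35 collagens, 17, among them Col4a5, Col4a6, Col23a1 and Col9a2, kept the sign of their difference under every alternative run and 18 did not. The genes named here were picked by their p in the main fit to the same arrays, so their kept sign is not separate support. The values with the opposite sign were, with normexp background correction, 0.053 for Col4a2, -0.030 for Col4a4, -0.10 for Col24a1, -0.11 for Col13a1 and -0.033 for Col25a1. With array median scaling, which moved the median of all genes to 0.07, they were 0.0055 for Col4a1, 0.040 for Col4a2, 0.0026 for Col6a3 and 0.0088 for Col7a1. With the slide block they were 0.015 for Col4a1, 0.12 for Col4a2, -0.059 for Col25a1 and 0.18 for Col6a3. With the replicate block they were -0.0087 for Col24a1, -0.024 for Col27a1, -0.053 for Col13a1, -0.015 for Col25a1 and 0.0054 for Col7a1. With the Y-linked covariate they were -0.0045 for Col18a1, -0.16 for Col11a1, -0.25 for Col24a1, -0.10 for Col27a1, -0.18 for Col5a1, -0.20 for Col13a1, -0.13 for Col6a2, -0.020 for Col6a5 and 0.13 for Col7a1. On the arrays with Y-linked signal alone they were -0.068 for Col11a1, -0.20 for Col24a1, -0.073 for Col27a1, -0.13 for Col5a1, -0.16 for Col13a1, -0.072 for Col6a2 and 0.14 for Col7a1.

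On leaving out each array in turn, differences ranged from -0.055 to 0.26 for Col18a1, -0.30 to 0.080 for Col4a1, -0.39 to 0.16 for Col4a2, -0.16 to 0.47 for Col11a1, -0.0011 to 0.42 for Col1a1, -0.16 to 0.26 for Col24a1, -0.024 to 0.22 for Col27a1, -0.26 to 0.30 for Col5a1, -0.12 to 0.50 for Col5a3, -0.53 to 0.10 for Col12a1, -0.10 to 0.22 for Col13a1, -0.13 to 0.59 for Col25a1, -0.026 to 0.50 for Col6a1, -0.41 to 0.46 for Col6a2, -0.48 to 0.14 for Col6a3 and -0.22 to 0.072 for Col7a1.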
